A study of Mus musculus with 9 samples.

Results

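MHC class I molecules show fragments of a cell's own proteins to CD8 T cells and give natural killer cells a sign of self. Each molecule is a heavy chain, encoded in the mouse H2 complex, held together with beta-2 microglobulin, encoded by B2m. NLRC5 is a transactivator of class I genes that acts through promoter-bound RFX, CREB/ATF and NF-Y factors, and interferon and NF-kB signals add to it through sites further upstream. In islets, strong class I staining is a known feature of human type 1 diabetes. The 10 genes described here are the heavy chains H2-K1, H2-D1, H2-Q4, H2-Q6, H2-Q7, H2-T22, H2-T23 and H2-M3, together with B2m and Nlrc5. They were chosen by symbol, as were the gene lists used below, with earlier results of these data known. All 10 were found among the 56748 genes of the deposited table and passed the filter on low counts.

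Total RNA of primary pancreatic islets from wt C57bl/6 mice was sequenced in 9 libraries, 3 per group. Particle islets received an inflammatory cocktail of IL-1beta, TNF-alfa and IL6 together with PD-G-MSNPs, which are mesoporous silica nanoparticles coated with polydopamine. Inflamed islets received the cocktail without particles, and control islets received no treatment. The exposure was 48 h in both treated groups. No library with particles but without cytokines was analysed here, and neither the age of the animals nor the origin of the replicates is stated in the labels. The p-values measure only the spread between these libraries, which may be technical. Both treated groups are set against the same control libraries.

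Totals were 17832949 to 55865759 counts per library. Insulin transcripts (Ins1 and Ins2) made up 8.55 to 21.6% of counts in particle islets, 13.01 to 21.2% in inflamed islets and 28.5 to 29.2% in control islets. The 12 markers of beta cells summed to 87713 to 240555 CPM (read counts relative to library totals, scaled by edgeR's TMM factors) in particle islets, 123650 to 229025 CPM in inflamed islets and 342676 to 360804 CPM in control islets, with none of the 12 at 0 in any library. In whole islets, fewer cells of a type and less RNA per cell cannot be told apart.

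The promoters of the members are shown first, because the same short elements recur in them. RefSeq windows (GRCm38.p6), each from 250 bases before to 50 bases after the start of a gene, were held for 9 of the 10 members. Nlrc5 was not among them. Where a gene had several starts, only the window of the start furthest downstream was used, and positions are counted from that start. In the 250 bases before the start, 4 motifs were searched on both strands, with letters chosen after the windows of the members had been seen. They were a kB-like element (GGGANTNCC), a part of an interferon-stimulated response element (ISRE-like, TTTCNNTT), an X2-like element (TGNTGAC) and a Y-like CCAAT box. The lines below run 5′ to 3′ on the strand of the gene, with matches to these motifs in capitals, and show the best known heavy chains, the pair at the ends of the fold changes, the most divergent window and B2m.
H2-K1: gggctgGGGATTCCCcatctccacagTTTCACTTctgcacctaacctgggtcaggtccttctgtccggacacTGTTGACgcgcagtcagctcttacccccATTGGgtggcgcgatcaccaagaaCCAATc
H2-D1: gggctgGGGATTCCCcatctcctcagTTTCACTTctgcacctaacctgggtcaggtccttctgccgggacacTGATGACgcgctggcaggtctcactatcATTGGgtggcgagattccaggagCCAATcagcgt
H2-Q6: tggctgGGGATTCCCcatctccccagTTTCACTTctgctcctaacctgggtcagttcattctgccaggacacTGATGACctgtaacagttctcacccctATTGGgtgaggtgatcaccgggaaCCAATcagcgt
H2-T23: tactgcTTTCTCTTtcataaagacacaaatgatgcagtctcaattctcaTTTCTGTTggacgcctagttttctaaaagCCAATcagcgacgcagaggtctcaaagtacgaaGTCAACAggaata
H2-M3: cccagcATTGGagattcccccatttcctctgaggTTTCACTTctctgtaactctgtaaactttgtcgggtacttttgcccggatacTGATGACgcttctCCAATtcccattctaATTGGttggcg
B2m: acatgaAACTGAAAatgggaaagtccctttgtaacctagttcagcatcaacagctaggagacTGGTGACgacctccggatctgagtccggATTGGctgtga

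The H2-K1 stretch is chr17:34000334-34000463 on the minus strand, and that of H2-D1 is chr17:35262918-35263051 on the plus strand. The H2-Q6 stretch is chr17:35424672-35424805 (plus), the H2-T23 stretch chr17:36032708-36032831 (minus), the H2-M3 stretch chr17:37270099-37270223 (plus) and the B2m stretch chr2:122147544-122147644 (plus). In H2-K1, H2-D1 and H2-Q6 the order is kB-like, ISRE-like, X2-like and Y-like. The ISRE-like and X2-like matches began 46 bases apart in H2-K1, H2-D1, H2-Q4, H2-Q6 and H2-Q7, 48 bases apart in H2-T22, 52 in H2-M3 and 56 in B2m. The B2m match to the ISRE-like letters is on the opposite strand and is followed by an X2-like and a Y-like match. H2-T23 differed: its only X2-like match lay after the Y-like box and on the opposite strand.

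The kB-like letters were found in 5 of the 9 windows of members (H2-K1, H2-D1, H2-Q4, H2-Q6 and H2-Q7), and in 3.37% of all 27026 promoter windows. The ISRE-like, X2-like and Y-like letters were each found in 9 of 9 members, and in 21.7%, 11.8% and 34.0% of all windows. All 4 motifs together occurred in 20 windows, or 0.074% of all, of which 5 belonged to members. The letters were chosen with the members' windows in view, and the H2 genes are alike in sequence. These counts therefore cannot show an enrichment. A match is a description of letters, not a site of binding, and the absence of a match says only that these letters are not in the window.

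**Figure D1:**
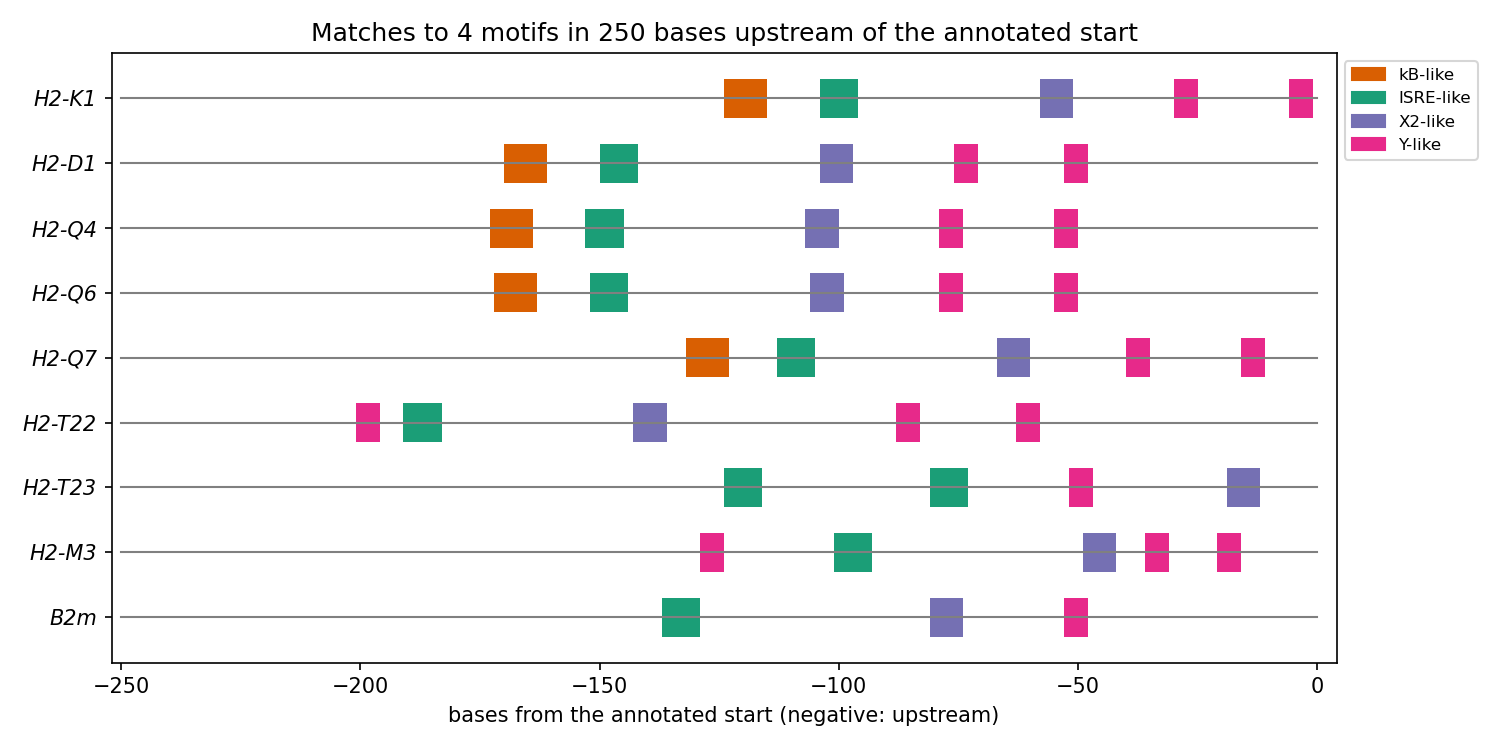
Positions of matches to the 4 motifs in the RefSeq windows of 9 members, as bases from the start of the gene (x axis), with 1 row per gene and 1 colour per motif. The kB-like, ISRE-like and X2-like marks line up in the same order in H2-K1, H2-D1, H2-Q4, H2-Q6 and H2-Q7, and H2-T23 carries its X2-like mark closest to the start.

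Cytokine-treated islets were compared with untreated islets to measure the class I response. All 10 members were higher in inflamed than in control islets, from 2.36-fold for H2-M3 to more than 100-fold for B2m, Nlrc5, H2-Q7 and H2-Q6, and every inflamed library lay above every control library for all 10. In the quasi-likelihood test of edgeR, with Benjamini-Hochberg adjusted p-values over 17276 genes, 10 of 10 were called higher at an adjusted p under 0.05, against 20.7% of all genes tested. Non-overlapping groups with inflamed on top occurred in 28.3% of all genes. The members were chosen with earlier results of these data known, so these shares give scale and are not a test. H2-Q6, H2-Q7 and Nlrc5 passed the filter only through treated libraries, which favours a call of higher for them. The median log2 fold change of the members was 4.54, beside 0.05 over all genes tested.

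Nlrc5, the transactivator (ENSMUSG00000074151, GRCm39 chr8:95160984-95253900, plus strand), had 82.2, 123 and 63.1 CPM in the 3 inflamed libraries, against 0.0826, 0.736 and 0.753 CPM in the control libraries. The control values stand for 2, 16 and 21 reads, so the gene was close to the limit of detection there and at least 63 CPM in each inflamed library. The fold change was 7.40 on the log2 scale (SE 0.68, adjusted p = 3.8e-05), or 169-fold with a 95% interval of 59.9 to 474. The 39 control reads have an exact Poisson interval of 27.7 to 53.3, which covers counting error only.

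The gene of an unnamed long noncoding RNA, 9330175E14Rik, lies over part of Nlrc5 on the opposite strand, and the labels do not state whether counting used the strand. Reads of the pair may therefore not be separable. 9330175E14Rik had 28.0, 34.3 and 29.9 CPM in inflamed libraries against 0.206, 0.184 and 0.215 CPM in control libraries (log2 fold change 7.21, adjusted p = 5.83e-07). Its reads summed to 33.6% of those of Nlrc5.

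B2m, the light chain that all class I heavy chains of this list use (ENSMUSG00000060802, chr2:121978167-121983564, plus strand), had 4834, 4873 and 6324 CPM in inflamed libraries against 43.9, 37.7 and 36.3 CPM in control libraries. Inflamed islets were 136-fold higher (log2 fold change 7.09, SE 0.41, adjusted p = 1.5e-06). Control libraries lay within a few CPM of each other, and the inflamed libraries were all at least 4834 CPM. Per deposited gene length, B2m held rank 4 among all genes in inflamed islets and rank 911 in control islets.

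Among the classical heavy chains, which present peptides to CD8 T cells, H2-K1 (ENSMUSG00000061232, chr17:34214991-34219321, minus) had 8121, 6624 and 7001 CPM in inflamed libraries against 792, 597 and 796 CPM in control libraries. Its log2 fold change was 3.31 (SE 0.31, adjusted p = 3.57e-05). H2-D1 (ENSMUSG00000073411, chr17:35481706-35486475, plus) had 6822, 5038 and 6071 CPM in inflamed libraries against 591, 418 and 547 CPM in control libraries (log2 fold change 3.53, SE 0.30, adjusted p = 1.74e-05). Both were already well expressed in untreated islets, at means of 728 and 519 CPM, and their folds of 9.95 and 11.5 were among the smaller ones of the list.

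Of the Q region heavy chains, H2-Q4 (ENSMUSG00000035929, chr17:35598593-35604266, plus) had 1398, 1082 and 1086 CPM in inflamed libraries against 44.6, 37.1 and 38.9 CPM in control libraries (log2 fold change 4.89, SE 0.27, adjusted p = 1.23e-06). H2-Q6 and H2-Q7 encode forms of Qa-2, a nonclassical molecule that can be anchored in the membrane by a lipid. H2-Q6 (ENSMUSG00000073409, chr17:35643826-35649031, plus) had 121, 74.2 and 114 CPM in inflamed libraries, against 0.0413, 0 and 0.144 CPM in control libraries, which stand for 1, 0 and 4 reads. H2-Q7 (ENSMUSG00000060550, chr17:35658131-35662749, plus) had 171, 91.0 and 129 CPM in inflamed libraries, against 0.124, 0.0920 and 0.466 CPM in control libraries, from 3, 2 and 13 reads. Both were thus nearly undetected without cytokines, and the inflamed libraries were far above that level. The fitted log2 fold changes of 10.48 for H2-Q6 (SE 0.50, adjusted p = 5.83e-07) and 9.06 for H2-Q7 (SE 0.64, adjusted p = 5.62e-06) rest on 5 and 18 control reads in all, with exact Poisson intervals of 1.62 to 11.7 and 10.7 to 28.4 reads. Without control replicate 3 the log2 fold changes were 11.89 for H2-Q6 and 10.12 for H2-Q7.

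Of the T and M region heavy chains, H2-T23 encodes Qa-1, which shows leader peptides of other class I chains to natural killer and T cell receptors. H2-T23 (ENSMUSG00000067212, chr17:36340665-36343747, minus) had 1928, 1574 and 1770 CPM in inflamed libraries against 112, 78.0 and 99.7 CPM in control libraries (log2 fold change 4.18, SE 0.34, adjusted p = 1.46e-05). H2-T22, a ligand of some gamma-delta T cells (ENSMUSG00000056116, chr17:36348020-36353639, minus), had 305, 273 and 381 CPM in inflamed libraries against 39.6, 36.4 and 44.9 CPM in control libraries (log2 fold change 2.99, SE 0.23, adjusted p = 9.11e-06). H2-M3, which presents N-formylated peptides of bacteria and mitochondria (ENSMUSG00000016206, chr17:37581111-37585375, plus), had 43.1, 43.8 and 42.1 CPM in inflamed libraries against 17.3, 18.7 and 18.6 CPM in control libraries. H2-M3 had the smallest difference of the list, at 1.24 on the log2 scale (SE 0.20, adjusted p = 0.000911), and its groups did not overlap.

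The heavy chain genes are alike in sequence, and the labels do not state how reads that match several genes were treated. Of the windows of 50 bases in the longest coding transcript (GENCODE M21), the share also found in another gene was 44.7% for H2-T22, mostly in H2-T10, 34.9% for H2-Q7 and 32.0% for H2-Q6, most often in each other, and 28.8% for H2-T23. The share was 24.3% for H2-Q4, 14.3% for H2-D1, 8.79% for H2-K1 and 0.576% for H2-M3. B2m and Nlrc5 shared no such window. Values of H2-Q6, H2-Q7 and H2-T22 are therefore the least certain, and those of H2-M3, B2m and Nlrc5 are the least touched by this. H2-Q4 also overlaps Gm11131 on the opposite strand, whose reads summed to 2.42% of its own.

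**Figure D2:**
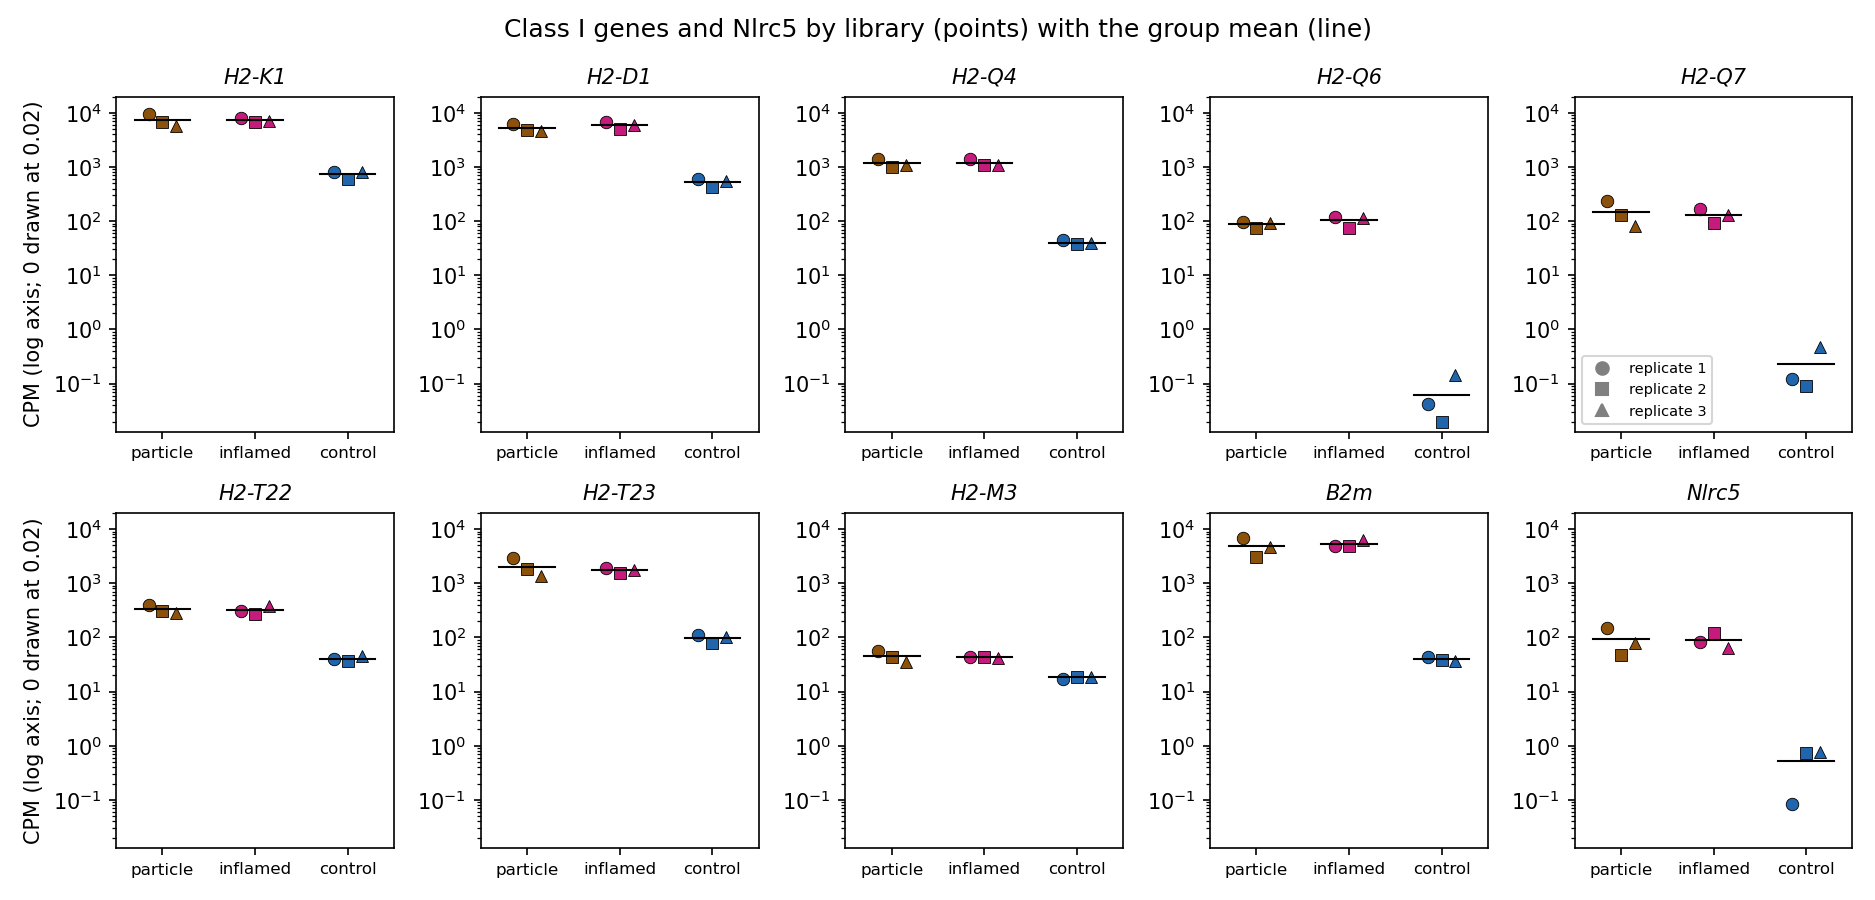
CPM of each member (log axis) in each library, with 3 points and a line at the mean per group, and groups in the order particle, inflamed and control. Every particle and inflamed library lies above every control library for all 10 genes, and particle and inflamed libraries overlap for all 10. The H2-Q6 library without a read is drawn at the foot of the axis, and values compare groups within a gene, since CPM is not divided by length.

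Islets given particles with the cytokines were compared with islets given cytokines alone, to ask what the particles changed under inflammation. None of the 10 members was called in this comparison, and particle and inflamed libraries overlapped for all 10. The log2 fold changes ran from -0.23 for H2-Q6 to 0.21 for H2-Q7, with 5 of 10 above 0 and a median of 0.02, beside 0.04 over all genes. By edgeR the adjusted p-values of the members were 0.764 to 1, and 0 of 10 had an unadjusted p under 0.05, against 15.1% of all genes. Groups without overlap occurred in 8.87% of all genes with particle on top and in 6.82% with particle below. The share of all genes called by edgeR here was 0%, with a smallest adjusted p of 0.0638, and DESeq2 called 506 genes higher and 276 lower, none of them a member.

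B2m had 6953, 3094 and 4635 CPM in particle libraries, beside 4834, 4873 and 6324 CPM in inflamed libraries. The particle values reach both above and below the inflamed ones, and the log2 fold change was -0.13 with a 95% interval of -0.82 to 0.57 (adjusted p = 0.89). Nlrc5 had 150, 48.2 and 79.2 CPM in particle libraries and 82.2, 123 and 63.1 CPM in inflamed libraries. Its log2 fold change was 0.05 with an interval of -1.02 to 1.11 (adjusted p = 0.979), the widest of the list, which leaves folds from 0.494 to 2.17 inside it.

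H2-K1 had 9364, 6697 and 5683 CPM in particle libraries, against 8121, 6624 and 7001 CPM in inflamed libraries, and the group means were 7248 ± 1901 and 7249 ± 779 CPM (SD, n = 3 each). The interval of its fold ran from 0.647 to 1.55. H2-D1 had 6104, 4781 and 4567 CPM in particle libraries against 6822, 5038 and 6071 CPM in inflamed libraries, with a fold interval of 0.571 to 1.30. For the classical chains, folds within these intervals are not excluded by the 3 libraries a group.

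H2-Q4 had 1428, 993 and 1085 CPM in particle libraries, close to the inflamed values, and the interval of its log2 fold change was -0.53 to 0.49. H2-Q6 had 97.9, 73.3 and 92.4 CPM in particle libraries (interval -0.86 to 0.40) and H2-Q7 had 241, 130 and 80.8 CPM (interval -0.71 to 1.13). H2-T23 had 2911, 1812 and 1336 CPM in particle libraries (interval -0.46 to 0.86). The SD was larger in particle than in inflamed islets for 8 of the 10 members, all but H2-D1 and H2-Q6. For H2-T23 it was 807 CPM in particle islets against 177 CPM in inflamed islets, and these SDs were not compared by a test. Over genes in general, pairs of particle replicates differed by a chi-square of 106 to 207 per degree of freedom, and pairs of inflamed replicates by 69.5 to 154. The larger spread is therefore not shown to be particular to the members. H2-T22 had 403, 302 and 288 CPM in particle libraries (interval -0.42 to 0.52), and H2-M3 had 56.3, 42.8 and 35.7 CPM (interval -0.36 to 0.49), with an SD of 10.49 CPM in particle islets against 0.865 CPM in inflamed islets. The narrowest intervals of the list were those of H2-M3 and H2-T22.

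Particle replicate 1 was the highest particle library for all 10 members and the highest of all 9 libraries for 8 of them. It also had the lowest insulin share, 8.55% of counts, and the lowest sum of beta cell markers, 87713 CPM, and the part of these in its class I values was not tested. Leaving out the highest library of a group lowers its mean by construction. Without this library the log2 fold changes of particle against inflamed were below 0 for all 10 members. They ran from -0.11 for H2-T22 to -0.46 for B2m and -0.48 for Nlrc5, and none of the 10 was called. The median of the members was -0.26 without particle replicate 1, but 0.11 without particle replicate 2 and 0.15 without particle replicate 3. The direction thus depended on the library left out.

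**Figure D3:**
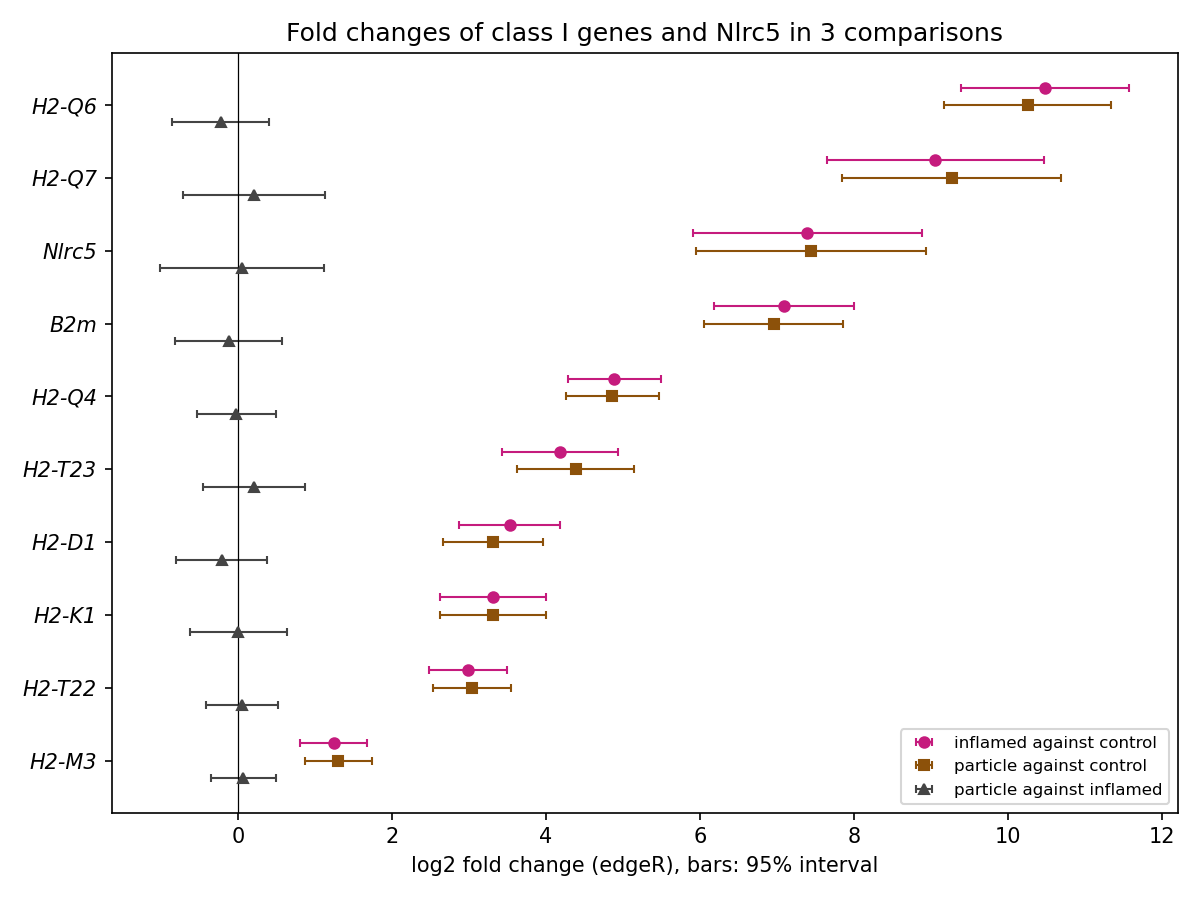
Log2 fold change of each member (x axis) in each comparison, with 95% intervals from the edgeR fit as bars and a line at 0. The intervals of particle against inflamed include 0 for all 10 genes, and those of both comparisons with control lie above 0 for all 10, from H2-M3 at 1.24 and 1.30 to H2-Q6 at 10.48 and 10.26.

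Particle islets were also compared with control islets. All 10 members were called higher by edgeR, against 11.4% of all genes, and all 10 had every particle library above every control library, against 22.9% of all genes. The limits given above on the choice of members and on the filter for H2-Q6, H2-Q7 and Nlrc5 hold here too. The median log2 fold change was 4.62, beside 0.05 over all genes. The differences were 10.26 for H2-Q6 (adjusted p = 7.07e-07), 9.27 for H2-Q7 (5.24e-06), 7.45 for Nlrc5 (4.71e-05) and 6.96 for B2m (1.69e-06), as log2 fold changes. They were 4.86 for H2-Q4, 4.38 for H2-T23, 3.31 for H2-K1, 3.31 for H2-D1, 3.04 for H2-T22 and 1.30 for H2-M3, with adjusted p-values up to 0.00139. Without control replicate 3, H2-Q6 stood at 11.66 and H2-Q7 at 10.34. These values share their control libraries with those of inflamed islets and are not independent of them.

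Levels were set against each other per length, in the authors' FPKM, a unit that divides reads by gene length and library size. The deposited lengths were 2938 bases for H2-K1, 4265 for H2-Q7 and 860 for B2m. Their longest coding transcripts (GENCODE M21) had 1619, 1523 and 860 bases. The order between genes, and the ratios and shares below, therefore hold for the deposited lengths and could differ with others. In particle islets the order was B2m at 5513 ± 2264 FPKM (SD, n = 3), H2-K1 at 2388 ± 662, H2-D1 at 1931 ± 341, H2-T23 at 677 ± 281, H2-Q4 at 435 ± 92.1, H2-T22 at 93.7 ± 19.2, H2-Q6 at 40.7 ± 6.38, H2-Q7 at 34.2 ± 19.1, H2-M3 at 30.2 ± 7.50 and Nlrc5 at 10.56 ± 6.11 FPKM. Of these neighbours, the libraries overlapped between H2-K1 and H2-D1, H2-T23 and H2-Q4, H2-Q6 and H2-Q7, and H2-Q7 and H2-M3. Inflamed islets had the same order of means, from B2m at 6065 ± 1011 FPKM, H2-K1 at 2404 ± 226 and H2-D1 at 2258 ± 314 down to Nlrc5 at 10.28 ± 3.57 FPKM. There, H2-K1 and H2-D1 overlapped, as did H2-Q6 at 48.0 ± 11.4 with H2-Q7 at 29.7 ± 8.78 and H2-Q7 with H2-M3 at 29.2 ± 0.682 FPKM.

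The order in control islets was another one. H2-K1 led at 250.1 ± 36.0 FPKM, followed by H2-D1 at 203 ± 32.3, B2m at 46.1 ± 4.18, H2-T23 at 33.7 ± 5.59, H2-Q4 at 15.6 ± 1.30, H2-M3 at 12.8 ± 0.704 and H2-T22 at 11.9 ± 1.21 FPKM. Nlrc5, H2-Q7 and H2-Q6 were below 0.1 FPKM, at 0.0627 ± 0.0459, 0.0538 ± 0.0491 and 0.0297 ± 0.0358 FPKM. B2m stood below both classical heavy chains in untreated islets. At the deposited lengths its lowest treated value, 3447 FPKM in particle replicate 2, lay above the highest of H2-K1, 3128 FPKM. Whether every treated value of B2m lies above every value of H2-K1 depends on the length used for H2-K1. Neighbours whose libraries overlapped were H2-K1 and H2-D1, H2-M3 and H2-T22, and the 3 lowest genes.

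The balance of light and heavy chain transcripts is described without a test. The 8 heavy chains summed to 7235, 5104 and 4554 FPKM in particle libraries, 6562, 5244 and 5890 FPKM in inflamed libraries and 575, 442 and 564 FPKM in control libraries. B2m came to 1.10, 0.675 and 1.13 times that sum in particle libraries, 0.823, 1.06 and 1.23 times in inflamed libraries, and 0.0882, 0.102 and 0.0755 times in control libraries. At the deposited lengths, the light chain transcript was thus far below the heavy chain sum in control islets and of similar size in treated islets. A ratio of transcripts says nothing of the proteins.

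H2-K1 and H2-D1 together made up 76.9 ± 1.39% of the heavy chain sum in particle islets, 79.0 ± 0.160% in inflamed islets and 85.9 ± 0.823% in control islets. H2-T23 took 11.7 ± 1.97% in particle, 10.07 ± 0.259% in inflamed and 6.39 ± 0.296% in control islets. H2-Q4 took 7.81 ± 0.856% in particle, 7.56 ± 0.503% in inflamed and 2.99 ± 0.320% in control islets. H2-T23 and H2-Q4 thus held a larger share in every treated library than in any control library. H2-T22 and H2-M3 held a smaller one: H2-T22 took 1.68 ± 0.0868% in particle, 1.55 ± 0.281% in inflamed and 2.28 ± 0.243% in control islets, and H2-M3 took 0.537 ± 0.0195% in particle, 0.499 ± 0.0671% in inflamed and 2.47 ± 0.485% in control islets.

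**Figure D4:**
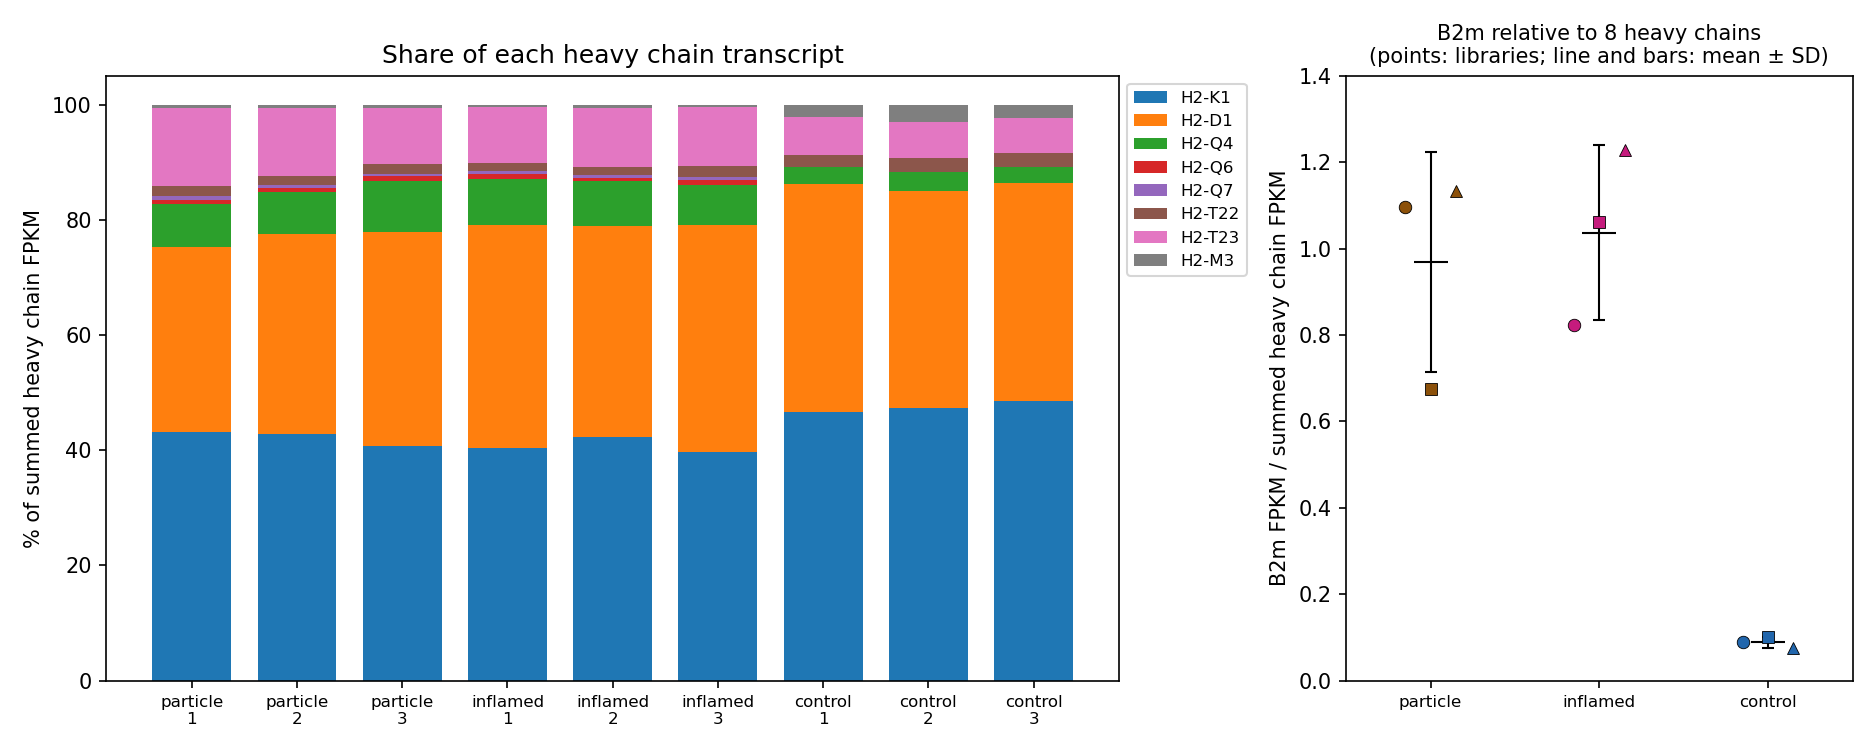
Share of each heavy chain in the summed FPKM of the 8 heavy chains (stacked bars, % of the sum) and B2m divided by that sum (points, with mean and SD), per library, in the order particle, inflamed and control. H2-K1 and H2-D1 fill 75.3 to 79.2% of the bars of treated libraries and 84.9 to 86.4% of those of control libraries, and the ratio of B2m is 0.675 to 1.23 in treated and 0.0755 to 0.102 in control libraries.

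The ratio of H2-K1 to H2-D1 per deposited gene length does not depend on library scaling. It was 1.35, 1.23 and 1.09 in particle libraries, 1.05, 1.15 and 1.01 in inflamed libraries and 1.18, 1.25 and 1.28 in control libraries. On the log2 scale inflamed islets were lower than control islets by a difference of -0.21, and the groups did not overlap (exact two-sided permutation p = 0.1, the smallest that 3 against 3 libraries allow). Particle islets differed from inflamed islets by 0.19 (exact p = 0.2) and from control islets by -0.02 (exact p = 0.8), with overlapping libraries in both cases. Adjusted over these 3 comparisons by the Benjamini-Hochberg method, the values were 0.3, 0.3 and 0.8, and none could reach 0.05.

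The pattern of each member over the 9 libraries was compared with that of the others as the root mean square difference of log2 CPM, centred per gene. The closest members were H2-K1 and H2-D1 at 0.13, followed by H2-K1 and H2-T22 at 0.22, H2-D1 and H2-T22 at 0.27 and H2-Q4 and H2-T23 at 0.36, and the farthest were H2-M3 and H2-Q6 at 3.94. Among 10386 protein-coding genes outside the list with a mean of at least 5 CPM, those nearest to Nlrc5 were Serpina3i (0.50), Fas, a death receptor (0.53), Casp4, an inflammatory caspase (0.57), C1s1, a complement protease (0.65), and Gbp8, a guanylate-binding protein (0.65). Those nearest to B2m were Xaf1 (0.23), Gm4951 (0.33), Batf2 (0.33), Calhm6 (0.34) and Gm5431 (0.34), and Gm4951 and Gm5431 were listed at 0 FPKM in control islets. The prior count of 2 in this measure limits how far genes with few or no control reads can differ, so the likeness of those genes, and of Nlrc5, H2-Q6 and H2-Q7, is less certain. The median difference over all these genes was 3.61 for Nlrc5 and 3.30 for B2m. These genes were picked for their likeness, so no test applies.

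The other class I heavy chains of the H2 complex were examined next. Of 27 listed, 21 were found, 18 had at least 1 read and 8 passed the filter. In inflamed against control islets 7 of the 8 were called higher and 0 lower, against backgrounds of 20.7% and 19%, and in particle against control islets 7 were called higher and 0 lower, against 11.4% and 5.92%. None was called in particle against inflamed islets. H2-Q5, H2-T24, H2-Q10, H2-Q1 and H2-M2 passed the filter only through treated libraries, which favours a call of higher for them. The counts of calls against control are therefore not a fair measure beside the shares of all genes. H2-Q5 averaged 121 ± 31.6 CPM in particle, 101 ± 14.3 CPM in inflamed and 0.346 ± 0.180 CPM in control islets (log2 fold change of inflamed against control 8.19, adjusted p = 5.83e-07). H2-K2, a pseudogene, averaged 156 ± 47.6 CPM in particle, 231 ± 68.2 CPM in inflamed and 18.4 ± 4.45 CPM in control islets (3.65, adjusted p = 2.09e-05).

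H2-T10, with which H2-T22 shares much of its sequence, averaged 17.8 ± 6.11 CPM in particle, 20.5 ± 4.85 CPM in inflamed and 1.43 ± 0.488 CPM in control islets (log2 fold change of inflamed against control 3.83, adjusted p = 3.62e-05). H2-T24, H2-Q10 and H2-Q1 were also called in that comparison, at means of 2.73, 3.97 and 1.54 CPM in inflamed and 0.128, 0.0512 and 0.0460 CPM in control islets. H2-M2 was called as well, with 21, 53 and 107 reads in inflamed libraries and no read in control libraries. H2-Q2 was the exception. It averaged 109 ± 11.96 CPM in particle, 106 ± 15.9 CPM in inflamed and 132 ± 13.6 CPM in control islets, with a log2 fold change of -0.32 for inflamed against control (adjusted p = 0.188) and -0.28 for particle against control (adjusted p = 0.325). The 10 remaining rows with reads (H2-Q3, H2-T3, H2-Bl, H2-M5, H2-M9, H2-M10.1, H2-M10.2, H2-M10.3, H2-M10.4 and H2-M10.6) had 1 to 53 reads in all and were not tested.

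Of 14 genes that supply and load the peptides of class I molecules, 11 were called higher and 0 lower in inflamed against control islets, beside 20.7% and 19% of all genes. In particle against control islets 10 were called higher and 0 lower, beside 11.4% and 5.92% of all genes. Tap1, a subunit of the peptide transporter, averaged 1015 ± 347 CPM in particle, 894 ± 74.8 CPM in inflamed and 25.5 ± 6.64 CPM in control islets (log2 fold change of inflamed against control 5.13, adjusted p = 3.46e-06). The immunoproteasome subunits Psmb9 (4.36, adjusted p = 6.2e-06) and Psmb8 (4.51, adjusted p = 6.5e-06) followed by p-value. Calr, Canx and Pdia3, general chaperones of the endoplasmic reticulum, were named after their values were seen and were not called, with log2 fold changes of -0.21, 0.11 and -0.56.

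Of 21 upstream regulators of class I transcription, 13 were called higher and 2 lower in inflamed against control islets, beside 20.7% and 19% of all genes. In particle against control islets 13 were called higher and 0 lower, beside 11.4% and 5.92% of all genes. Those with the smallest adjusted p in inflamed against control were Ifngr2, a chain of the interferon gamma receptor (log2 fold change 3.25, adjusted p = 1.11e-05), Irf8 (3.49, 3.16e-05) and Irf1 (3.86, 3.49e-05), both interferon regulatory factors. Irf1 averaged 1109 ± 594 CPM in particle, 752 ± 108 CPM in inflamed and 51.9 ± 1.26 CPM in control islets. The factors that hold NLRC5 at class I promoters, named here for that role after their values were seen, had smaller log2 fold changes than these. Rfx5 was called higher (1.46, adjusted p = 0.00674), and Rfxap (0.34), Rfxank (-0.34), Nfya (0.42) and Creb1 (0.33) were not called. The NF-Y subunits Nfyb (-0.50, adjusted p = 0.046) and Nfyc (-0.89, adjusted p = 0.00304) were called lower.

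None of the genes of both lists was called in particle against inflamed islets by edgeR. Of 11 class II genes, among them Ciita, the class II counterpart of Nlrc5, 8 passed the filter. All 8 were called higher in inflamed against control islets, beside 20.7% of all genes. In particle against control islets 7 of 8 were, beside 11.4%. Genes near zero in control islets could pass the filter through treated libraries alone, so these counts are not a fair measure beside the shares. Ciita, named for that role, averaged 16.5 ± 12.8 CPM in particle, 18.1 ± 2.85 CPM in inflamed and 0.578 ± 0.290 CPM in control islets.

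Markers of macrophages, cells that carry class I and class II molecules, moved with the inflamed group. Of 17 tested, 14 were called higher and 1 lower in inflamed against control islets, beside 20.7% and 19% of all genes. In particle against control islets 3 were called higher and 2 lower, shares near the 11.4% and 5.92% of all genes. None of the 17 was called in particle against inflamed islets, where their median log2 fold change was -1.45. The 18 markers summed to 391 to 558 CPM in particle libraries, 1151 to 1253 CPM in inflamed libraries and 395 to 468 CPM in control libraries, and no marker was at 0 in all 3 libraries of any group. C1qc averaged 31.0 ± 9.60 CPM in particle, 120.5 ± 19.6 CPM in inflamed and 27.2 ± 6.41 CPM in control islets, with an adjusted p of 0.0638 for particle against inflamed. The macrophage sums of particle libraries overlapped those of control libraries, and the part of these markers in the class I values was not tested.

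Dendritic cell markers summed to 10.7 to 18.4 CPM in particle, 25.5 to 74.4 CPM in inflamed and 6.67 to 12.4 CPM in control libraries, with Xcr1 and Siglech at 0 in all 9. Of 8 listed, 4 were tested, and 4 were called higher in inflamed against control islets, beside 20.7% of all genes. In particle against control islets 0 of the 4 were called. Markers near zero in control islets could pass the filter through treated libraries alone, which favours a call of higher. Lymphocyte markers summed to 4.09 to 8.02 CPM in particle, 2.02 to 6.74 CPM in inflamed and 7.31 to 34.8 CPM in control libraries, with Cd3e, Ms4a1, Nkg7 and Ncr1 at 0 in all 9. Only 2 of them were tested, of which 1 was called lower in inflamed against control islets and 0 in particle against control islets. Beta cell markers, given above, were called lower in 11 of 12 in inflamed against control islets, beside 19% of all genes, and in 5 of 12 in particle against control islets, beside 5.92%. Duct cell markers summed to 1559 to 1709 CPM in particle, 1380 to 2596 CPM in inflamed and 974 to 1097 CPM in control libraries, and of 9 tested, 4 were called higher and 1 lower in inflamed against control and 2 higher and 1 lower in particle against control islets. Alpha and delta cell markers summed to 178 to 9493 CPM in particle, 220 to 792 CPM in inflamed and 8405 to 29872 CPM in control libraries, and of 7 tested, 5 were called lower in inflamed against control and 3 in particle against control islets. Endothelial markers were called lower in 6 of 12 and stellate and fibroblast markers in 2 of 10 in inflamed against control islets, and 0 of 12 and 1 of 10 were called lower in particle against control islets. None of 9 acinar markers was called in either comparison. Beside the counts of all these lists stand 20.7% of all genes called higher and 19% lower in inflamed against control islets. In particle against control islets the shares were 11.4% and 5.92%. The 2 of 10 stellate and fibroblast markers and the 1 of 9 duct markers called lower in inflamed islets lay near or below that 19%. The part of shifts among these cell types in the class I values was not tested.

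**Figure D5:**
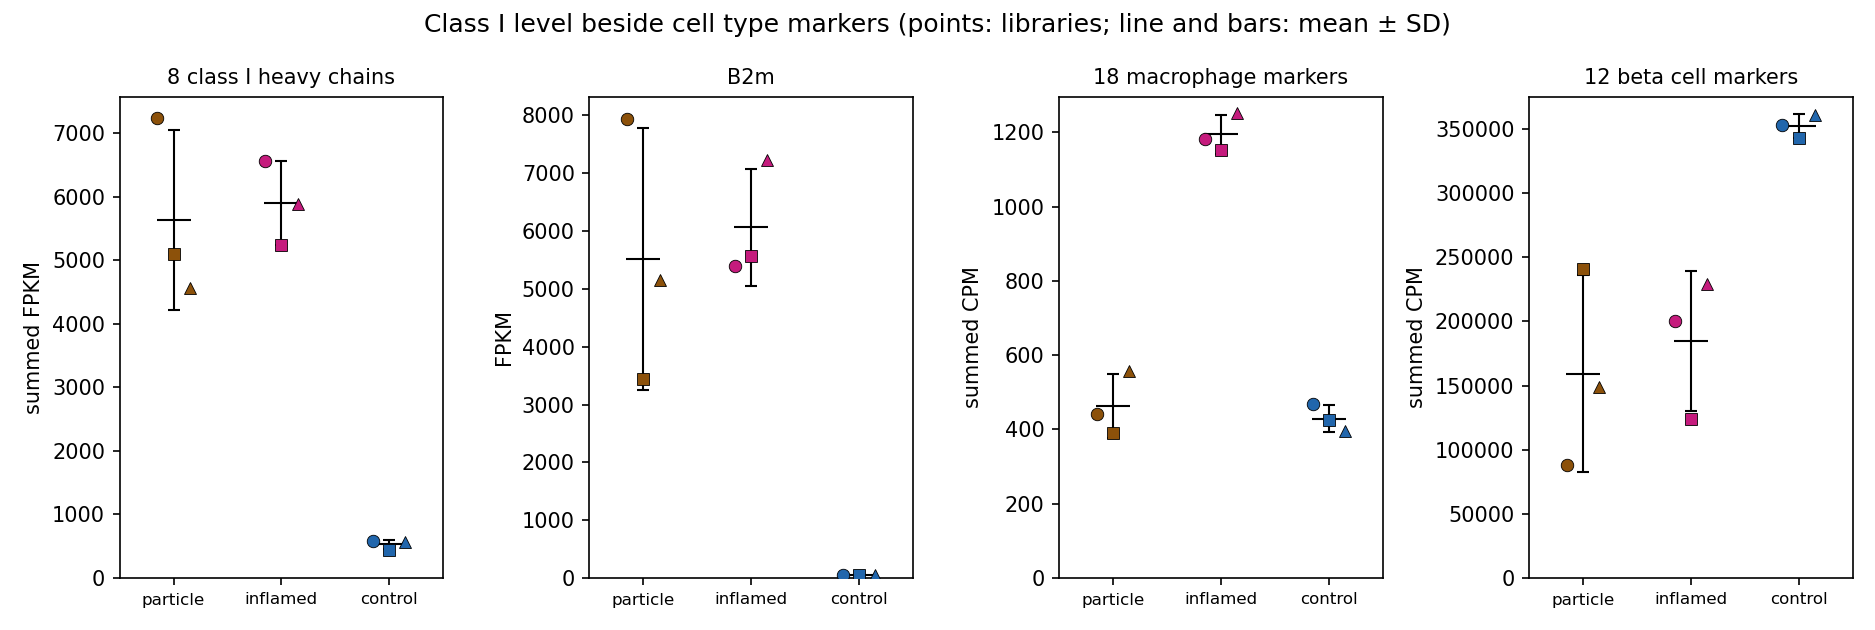
Summed FPKM of the 8 heavy chains, FPKM of B2m, and summed CPM of 18 macrophage and 12 beta cell markers in each library (points; line and bars show the mean and SD), with groups in the order particle, inflamed and control. Macrophage sums are 1151 to 1253 CPM in inflamed libraries and at most 558 CPM in particle libraries, whereas B2m is at least 3447 FPKM in every treated library and at most 50.7 FPKM in control libraries.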

How the data were processed

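The deposited count table holds whole-number read counts per gene for 56748 genes in 9 libraries, not normalized. The deposited FPKM table, made by the authors, holds those counts per length and per library constant, and the constants were 0.86 to 1.19 times the library totals. HTSeq, DESeq2 and the build GRCm39 are named per the submitters' processing notes, and versions, strand and the handling of reads that fit several genes are not given in the sources used here. Gene lengths and coordinates (GRCm39) are those the authors deposited in the same tables. Groups and replicate numbers come from the sample titles.

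The test was run on the counts in edgeR 4.0.16 (R 4.3.3). The default filterByExpr (smallest count 10) left 17276 genes, TMM factors scaled the libraries, and robust quasi-likelihood models were fitted to all 9 libraries. Genes near zero in control islets could pass this filter through treated libraries alone, which favours a call of higher against control. Benjamini-Hochberg adjustment ran over all genes tested, with calls made at an adjusted p under 0.05. Intervals are 95%, per gene and not adjusted. Log2 CPM for likeness of pattern used a prior count of 2. Replicates of a group differed by a chi-square of 43.4 to 207 per degree of freedom, so all were kept as separate libraries. The procedure was tested on simulated counts. Alternatives were RLE factors, library totals, other count filters, DESeq2 1.42.0, limma-voom and limma-trend (limma 3.58.1) on log2(FPKM + 1) and with a pseudocount of 0.1, fits of only the compared groups, a replicate block and leaving out each library, and, chosen after seeing the data, thinning all libraries to 17832949 counts.

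The members and lists were chosen with earlier results of these data known. Beside the members, up to 3 genes per list with the smallest adjusted p in inflamed against control and the 5 genes nearest in pattern to Nlrc5 and to B2m were named by rule, with every other H2 class I row that had a read. Promoters are RefSeq windows of GRCm38.p6, an earlier build than that of the tables, so their coordinates are not comparable.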

Additional observations from a re-analysis of the deposited data

How the results depend on the processing

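Each of the 10 members kept its call in each comparison under all 20 alternatives (200 of 200 values per comparison): called higher against control in both treated groups, with adjusted p-values up to 0.0073 for inflamed and 0.015 for particle islets, both for H2-M3, and not called in particle against inflamed, with adjusted p-values of at least 0.413. The sizes of the folds of genes near zero in controls did depend on the setting. With log2(FPKM + 1), whose pseudocount shrinks low genes by construction, the log2 fold changes of inflamed against control were 5.55 for H2-Q6, 4.82 for H2-Q7 and 3.36 for Nlrc5, and those of particle against control were 5.33, 4.92 and 3.31. Without control replicate 3, H2-Q6 stood at 11.89 and H2-Q7 at 10.12 in inflamed against control, and at 11.66 and 10.34 in particle against control. Thinned, H2-Q6 stood at 11.86 and 11.62. With log2(FPKM + 0.1) the values of H2-Q6, H2-Q7 and Nlrc5 were 8.54, 7.60 and 5.98 in inflamed against control, and 8.32, 7.70 and 5.92 in particle against control. Library totals without TMM factors shifted the median of all genes by 0.18 in inflamed against control, by 0.09 in particle against inflamed and by 0.27 in particle against control (log2).

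Counts over all genes moved more than the members did. In particle against inflamed, where edgeR called 0 higher and 0 lower, library totals gave 1 higher, no filter 120 higher and 101 lower, DESeq2 506 and 276, limma-voom 1 and 14, log2(FPKM + 1) 1 and 15, log2(FPKM + 0.1) 5 and 9, and thinning 1 and 3. Leaving out each library in turn gave 0 to 636 higher and 0 to 306 lower there, the highest of both without particle replicate 3, and 1 lower without control replicate 2. In particle against control (1961 higher, 1022 lower), library totals gave 3193 higher and 597 lower, and the genes called lower were 1853 with DESeq2, 2017 with log2(FPKM + 1) and 1635 with log2(FPKM + 0.1). Leaving out each library gave 887 to 2424 higher (887 without control replicate 3) and 224 to 2121 lower (224 without particle replicate 1, 2121 without particle replicate 2). In inflamed against control (3568 higher, 3274 lower), leaving out each library gave 2278 to 3786 higher, the lowest without control replicate 3, and library totals gave 4240 higher and 2605 lower. The cause of these shifts was not tested.

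Libraries with the same replicate number did not deviate together (correlations of -0.18 to 0.21), so the numbers were not taken as pairs. With the replicate number as a block, 3152 genes were called higher and 2964 lower in inflamed against control, 1628 and 970 in particle against control, and 0 in particle against inflamed, and the members' calls were as without it. With 3 libraries a group, the ratio of H2-K1 to H2-D1 could not reach 0.05 under any setting.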

Other observations

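Class I-like molecules encoded outside the H2 complex did not move as 1 group. Of 12 listed, 7 were tested, and 3 were called higher and 1 lower in inflamed against control islets, beside 20.7% and 19% of all genes. Here too the filter could favour a call of higher for genes near zero in control islets. Procr, the endothelial protein C receptor, averaged 21.3 ± 3.67 CPM in particle, 49.3 ± 39.99 CPM in inflamed and 1.32 ± 0.888 CPM in control islets (SD, n = 3 each, log2 fold change of inflamed against control 5.24, edgeR adjusted p = 0.000329). Hfe, which governs iron uptake, was lower, at 16.5 ± 7.15 CPM in particle, 13.02 ± 3.88 CPM in inflamed and 43.8 ± 8.18 CPM in control islets (-1.75, adjusted p = 0.00188). Cd1d1, which presents lipids, averaged 1.99 ± 1.10 CPM in particle, 3.16 ± 1.79 CPM in inflamed and 0.721 ± 0.388 CPM in control islets (2.14, adjusted p = 0.0201).

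Of 20 genes listed as receptors for class I molecules, 5 were tested. Of these, 4 were called higher in inflamed against control islets, beside 20.7% of all genes. In particle against control islets 2 were called higher, beside 11.4%. Receptor genes near zero in control islets could pass the filter through treated libraries alone, so these counts are not a fair measure beside the shares. Lilrb4b, a receptor of myeloid cells, averaged 13.2 ± 6.99 CPM in particle, 35.2 ± 6.18 CPM in inflamed and 2.44 ± 0.954 CPM in control islets (log2 fold change of inflamed against control 3.85, adjusted p = 0.0002). Pirb, an inhibitory receptor of class I molecules, averaged 3.66 ± 1.12 CPM in particle, 10.401 ± 2.37 CPM in inflamed and 1.11 ± 0.635 CPM in control islets (3.23, adjusted p = 0.00059). Neither was called in particle against inflamed islets (adjusted p = 0.174 and 0.172). Sums of the macrophage markers given above were also higher in inflamed than in control libraries, whereas those of particle and control libraries overlapped. The part of these markers in the receptor values was not tested.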
